A study of Mus musculus with 3 samples.

Results

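CD4+ T cells specific for the peptide 2W1S, sorted from mice labelled as lacking the IL-6 receptor alpha chain in T cells and from wild-type mice, were compared gene by gene. The table holding both libraries has 23283 entries, and all 8100 with an FPKM of at least 5 in either library were described. FPKM counts fragments per kilobase of transcript, scaled by library depth. The knockout library is titled IL6ra T-KO, with the genotype Il-6 receptor a chain -/-, and the library it was set against is WT, with the genotype wild-type. Another library of the series, MyD88 T-KO (Myd88 -/-), is used only for values set beside these. It shares the WT library and was scaled in a table of its own, in which WT values are lower by a factor of 1.02. All mice were C57BL/6 and had received 2W1S in the footpads, emulsified with LPS in IFA, an oil adjuvant. The inguinal and popliteal nodes were taken on day 7, and CD4+ cells binding 2W:I-A(b), the peptide on its MHC class II molecule, were sorted from them. The series' title names the deletions as T cell-specific, but the promoter driving the recombinase and the deleted exons are not stated there or in the labels.

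Each library was 1 pool of cells from 4 experiments and 15 to 30 mice per genotype. There were thus no replicates, the spread between mice is unknown, no test was made, and every difference below is one between 2 libraries. A gene was called higher or lower when log2((IL6ra T-KO FPKM + 1)/(WT FPKM + 1)), the log2 ratio used throughout, was at least 1 in size. For fold values without the added 1 FPKM, the 95% interval given covers counting error only. It rests on an estimated depth of 23.96 M fragments for IL6ra T-KO and 21.7 M for WT, and on 1 transcript length per gene. In such bulk libraries, fewer cells of a type and less RNA per cell cannot be told apart.

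IL-6 is bound by the alpha chain Il6ra, and the complex recruits the signalling chain gp130, encoded by Il6st. Janus kinases on gp130 then phosphorylate STAT3, which enters the nucleus and activates genes that include its own inhibitor Socs3. In CD4+ T cells IL-6 is known for inducing, together with TGF-beta, the Th17 program of IL-17 and IL-22 and for promoting IL-21 and follicular helper differentiation, and its absence favours regulatory T cells.

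The stretches before the starts of 6 called genes are shown because they hold the letters that STAT factors or interferon-activated factors are known to prefer. They are the 250 bases before the annotated start, from RefSeq on GRCm38.p6. In the first 3, from genes lower in the labelled IL6ra T-KO library, capitals mark TTCNNNGAA, a palindrome. In the last 3, from genes higher there, capitals mark GAAANNGAAA, or TTTCNNTTTC where it lies on the other strand, with overlapping matches run together. Their positions are chr11:117969367-117969616, minus strand for Socs3, chr5:146844821-146845070, plus strand for Rasl11a, chr19:34290409-34290658, plus strand for Fas, chr7:140955962-140956211, minus strand for Ifitm2, chr3:142559794-142560043, plus strand for Gbp3 and chr3:142530086-142530335, plus strand for Gbp7.
Socs3: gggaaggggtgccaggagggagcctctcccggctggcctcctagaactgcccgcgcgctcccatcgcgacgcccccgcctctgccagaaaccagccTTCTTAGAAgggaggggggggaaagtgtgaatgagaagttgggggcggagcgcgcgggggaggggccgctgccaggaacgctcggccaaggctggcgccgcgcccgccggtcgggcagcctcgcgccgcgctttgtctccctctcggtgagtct
Rasl11a: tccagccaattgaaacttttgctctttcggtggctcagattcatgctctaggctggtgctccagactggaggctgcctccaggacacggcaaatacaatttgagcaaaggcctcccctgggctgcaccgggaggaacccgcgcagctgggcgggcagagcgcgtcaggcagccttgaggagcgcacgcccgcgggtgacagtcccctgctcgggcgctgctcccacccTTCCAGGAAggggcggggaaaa
Fas: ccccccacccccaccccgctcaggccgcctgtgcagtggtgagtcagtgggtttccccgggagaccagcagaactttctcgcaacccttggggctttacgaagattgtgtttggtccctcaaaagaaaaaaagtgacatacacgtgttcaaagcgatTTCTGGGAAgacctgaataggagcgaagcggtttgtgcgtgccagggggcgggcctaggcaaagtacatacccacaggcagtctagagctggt
Ifitm2: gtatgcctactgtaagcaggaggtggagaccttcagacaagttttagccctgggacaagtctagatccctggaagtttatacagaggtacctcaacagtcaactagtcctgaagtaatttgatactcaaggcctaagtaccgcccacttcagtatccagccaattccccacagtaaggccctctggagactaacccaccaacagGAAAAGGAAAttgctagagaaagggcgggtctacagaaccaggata
Gbp3: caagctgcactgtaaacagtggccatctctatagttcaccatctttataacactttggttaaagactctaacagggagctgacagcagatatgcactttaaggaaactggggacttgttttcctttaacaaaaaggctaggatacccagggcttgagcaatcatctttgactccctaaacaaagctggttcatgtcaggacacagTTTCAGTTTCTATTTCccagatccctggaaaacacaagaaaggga
Gbp7: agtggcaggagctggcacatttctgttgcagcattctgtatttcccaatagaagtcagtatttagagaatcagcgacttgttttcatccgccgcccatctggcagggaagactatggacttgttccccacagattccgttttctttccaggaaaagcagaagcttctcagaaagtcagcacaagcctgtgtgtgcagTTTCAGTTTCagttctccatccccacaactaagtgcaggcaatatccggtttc

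Both motifs were searched on both strands of windows of 300 bases, 250 before and 50 after the start. TTCNNNGAA was in 7 of the 44 higher genes with a promoter in the table (15.9%), in 6 of the 40 lower genes (15%), and in 8.30% of all 32851 promoters. The STAT-type letters were thus about as frequent beside higher as beside lower genes. GAAANNGAAA was in 8 of the 44 higher genes (18.2%), in 3 of the 40 lower genes (7.5%), and in 3.44% of all promoters. The shares of all promoters count single promoters, whereas a gene counts if any of its promoters matches. Counted per gene, TTCNNNGAA was in 8.24% and GAAANNGAAA in 4.15% of the 5814 genes with a promoter and FPKM of at least 5. Gbp7 held TTCNNNGAA too, at -106 and -87 from its start. The promoter of Socs1, a lower gene, held the interferon-type letters as GAAAGAGAAA at -83 and GAAACCGAAA at -77. Genes with the same letters therefore stood on both sides, and a match is not a site shown to be bound.

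The libraries differed at few genes. Of the 8100 entries, 77 (0.951%) were higher and 60 (0.741%) lower in the labelled IL6ra T-KO library, and 7422 (91.6%) had a ratio within 0.5 of 0. The shares of 0.951% higher and 0.741% lower are the background for each count of called list members below. Ratios were above 0 for 38.1% of the entries and below 0 for 61.9%. The median ratio was -0.06, with the central 95% of genes between -0.61 and 0.68. In MyD88 T-KO against its own WT values, 15 of 7933 (0.189%) were higher and 19 (0.24%) lower. With small RNA, predicted and several-symbol entries left out, 64 of 7631 genes (0.839%) were higher and 54 (0.708%) lower. Just inside the size rule were Pck2 at 1.01, Cxcl10 at 1.02 and Runx2 at 1.03, and just outside it Lpar6, Tgtp2 and St3gal6 at 0.99. On the lower side Kbtbd11 at -1.01, Fam20a at -1.01 and Gltp at -1.02 were inside, and Sbno2 at -0.997, Otud3 at -0.99 and Ppp1r15a at -0.99 were outside.

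**Figure D1:**
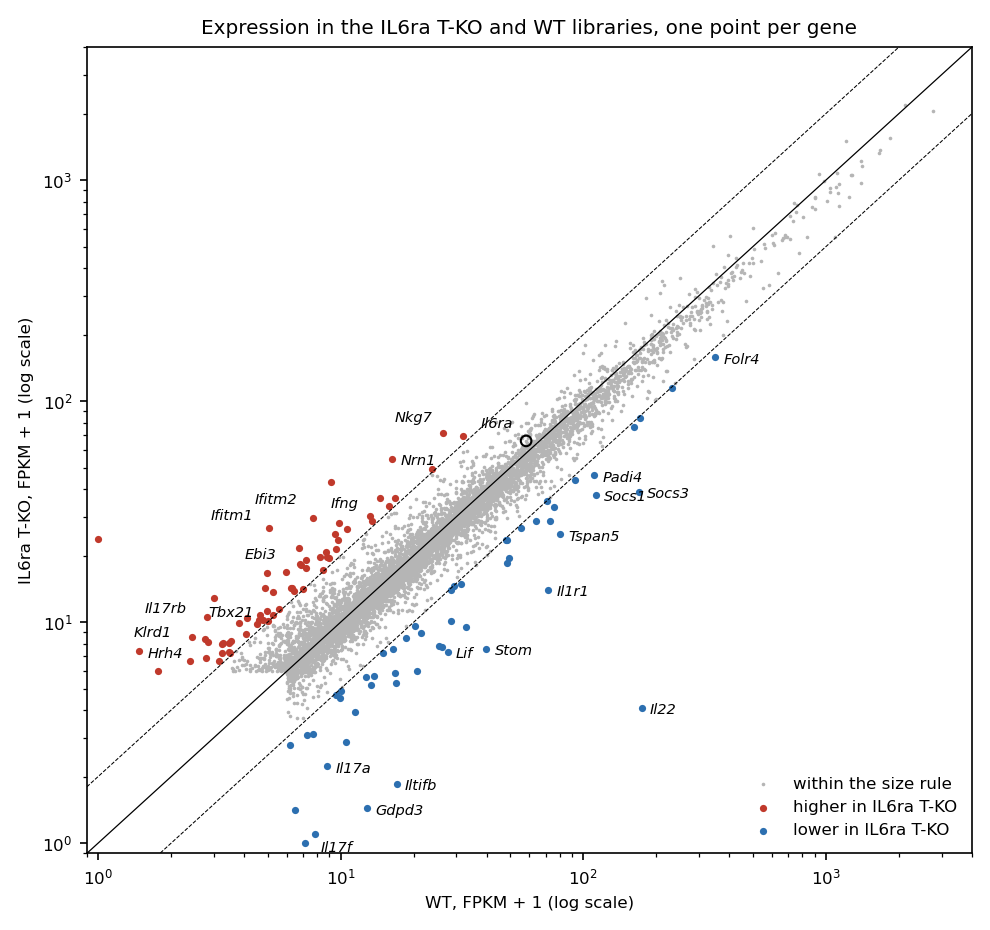
FPKM + 1 of each single-symbol gene with FPKM of at least 5 in either library, in the labelled IL6ra T-KO library (y axis) against WT (x axis), both on log scales. Dashed lines mark a log2 ratio of 1 and -1, and the open circle is Il6ra. Il22 lies farthest below the diagonal, at 3.10 FPKM in the labelled IL6ra T-KO library against 173 FPKM in WT.

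Ratios depended on level. Their median was 0.00 for genes with a mean level of 5 to 10 FPKM and -0.16 for the 544 genes at 100 FPKM or more. Of those 544 genes 0 were higher and 5 lower. Among the 217 genes with a mean level under 5 FPKM the central 95% ran from -2.76 to 2.59, and 23 of them were higher (10.6%) and 13 lower (5.99%). A gene of this class reached 5 FPKM in only 1 library, so the filter itself favours wide ratios there. Called list members of this class are to be read beside these shares too. At 20 to 50 FPKM the central 95% ran from -0.59 to 0.52. The limit of the lowest 2.5% was -0.53 at 5 to 10 FPKM and -0.78 at 100 FPKM or more, so the limits shifted with level. Beside the lists below the mean of the medians of genes of like level is given as their level value.

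**Figure D2:**
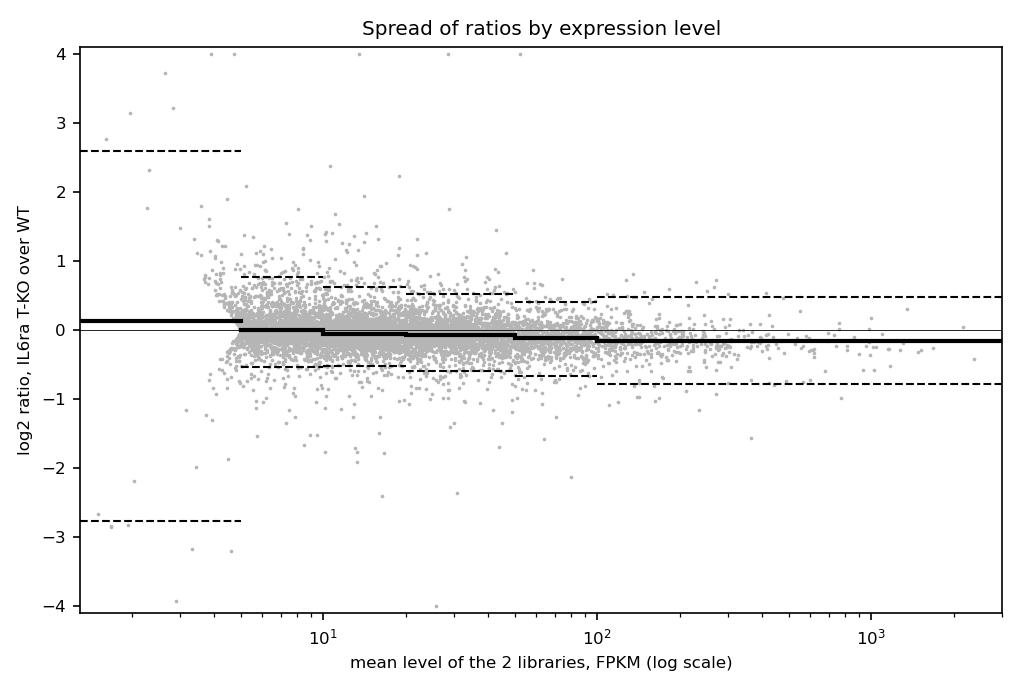
Log2 ratio of the labelled IL6ra T-KO library over WT (y axis) against the mean level of both libraries in FPKM (x axis, log scale), one point per entry. Solid bars are the median of each level class and dashed bars the limits of its lowest and highest 2.5%. The 6 entries with a ratio beyond 4 in size are drawn at the edge, and the median steps down to -0.16 at 100 FPKM and above.

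Il6ra lies on mm10 chromosome 3 from 89869324 to 89913162. It had 65.1 FPKM in the labelled IL6ra T-KO library, 60.9 FPKM in MyD88 T-KO and 57.1 FPKM in WT, a ratio of 0.18 for the first against WT. The transcript was not lower where the label names a deletion. FPKM is summed over the whole gene, so the value does not tell whether single exons are missing. The 5 measured genes on each side, from Pygo2 to Rps27, had ratios between -0.39 and 0.14. None of these neighbours was called. Since the transcript does not bear out the label, the library is called by that label throughout and each direction rests on it.

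The machinery downstream of the receptor was present in both libraries. Il6st, the shared signalling chain, had 52.9 FPKM in the labelled IL6ra T-KO library against 53.5 FPKM in WT, a ratio of -0.02. Stat3 had 78.7 FPKM in the labelled IL6ra T-KO library against 95.5 FPKM in WT, a ratio of -0.28. None of the 16 receptor, kinase and STAT genes was called, and their median was -0.02 beside -0.06 over all genes. The kinases Jak3 (-0.55), Jak2 (-0.54) and Jak1 (-0.36) and the transcription factor Stat5a (-0.61) had ratios below 0. Stat4, which acts downstream of IL-12, had a ratio of 0.30.

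Feedback inhibitors held some of the widest differences. Socs3, which blocks gp130 signalling, had 37.9 FPKM in the labelled IL6ra T-KO library, 117 FPKM in MyD88 T-KO and 169 FPKM in WT. It was 4.46-fold higher in WT (counting interval 4.26 to 4.67), a ratio of -2.13. Socs1, which inhibits Janus kinases downstream of interferon gamma and common gamma chain cytokines, had 36.7 FPKM in the labelled IL6ra T-KO library against 112 FPKM in WT, a ratio of -1.58. These were the only 2 of 15 measured inhibitors called. Ptpn1, a phosphatase that acts on Janus kinases, had a ratio of -0.81. Cish, induced by STAT5, had 12.6 FPKM in the labelled IL6ra T-KO library against 9.95 FPKM in WT, a ratio of 0.32. The difference was thus not one of all inhibitors, with 10 of the 15 below 0 and a median of -0.13.

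Of 28 measured genes that IL-6 or STAT3 is known to induce, 9 were lower and 1 higher, against 0.741% and 0.951% of all entries. Their median was -0.62, with a level value of -0.09. The lower ones included Il1r1, Socs3, Lif, Socs1, Fosl2, Bcl3, Il21 and Batf. Bcl3, an atypical IkB protein, had 27.6 FPKM in the labelled IL6ra T-KO library against 62.9 FPKM in WT. Batf, an AP-1 factor required for Th17 and follicular helper cells, had 83.0 FPKM in the labelled IL6ra T-KO library against 171 FPKM in WT, a ratio of -1.03. Other members stood near 0, such as Irf1 at 0.01, Pim2 at 0.06 and Bcl2 at -0.07. The higher member was Fgl2, at 8.94 FPKM in the labelled IL6ra T-KO library against 2.81 FPKM in WT. Fgl2 encodes a secreted mediator of regulatory T cells.

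Il22, a cytokine that acts on epithelia, had the lowest ratio of the 8100 entries. It had 3.10 FPKM in the labelled IL6ra T-KO library, 64.3 FPKM in MyD88 T-KO and 173 FPKM in WT. In WT it was 55.8-fold higher (counting interval 45.0 to 70.6), a ratio of -5.41. Its neighbour Iltifb had 0.852 FPKM in the labelled IL6ra T-KO library against 16.0 FPKM in WT. Of 1061 stretches of 50 bases in the annotated Il22 transcript, 435 (41.0%) also occur in that of Iltifb, so fragments could be divided between the pair. Il17a, a ligand that recruits neutrophils, had 1.23 FPKM in the labelled IL6ra T-KO library against 7.79 FPKM in WT. Il17f, which pairs with it, had 0.107 FPKM in the labelled IL6ra T-KO library against 6.83 FPKM in WT. That lower value is about 2.57 fragments, and WT was 63.9-fold higher with a counting interval of 18.3 to 267.

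The Th17 list as a whole had 9 of 19 measured members lower and 0 higher, with a median of -0.84 and a level value of -0.03. Il1r1, the IL-1 receptor, had 13.01 FPKM in the labelled IL6ra T-KO library, 62.4 FPKM in MyD88 T-KO and 70.8 FPKM in WT. Rora, a nuclear receptor that promotes Th17 differentiation, stood at -0.10. Ccr6, the chemokine receptor of Th17 cells, had a ratio of -0.84. Ahr at 0.61 and Cxcr6 at 0.69 had ratios above 0, so the members did not all lie on one side. Il23r, the IL-23 receptor, missed the FPKM minimum, with 0.880 FPKM in the labelled IL6ra T-KO library against 3.07 FPKM in WT.

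The matched genes used as markers of gamma delta T cells, which can make IL-17 and IL-22, had ratios below 0 except Blk. They included Cd163l1 at -2.15, Il23r at -1.11 and 5830411N06Rik at -0.99. Cd163l1 had 0.338 FPKM in the labelled IL6ra T-KO library against 4.93 FPKM in WT, and 5830411N06Rik had 0.573 FPKM in the labelled IL6ra T-KO library against 2.12 FPKM in WT. Blk, a kinase that B cells also express, had 4.43 FPKM in the labelled IL6ra T-KO library against 2.79 FPKM in WT. Sox13, a factor of the gamma delta lineage, was at 0.00957 FPKM in the labelled IL6ra T-KO library against 0.0113 FPKM in WT. Of the 9 genes on this list 6 were matched, and only Maf, which CD4+ helper cells also express, reached 5 FPKM. Their summed level was 214 FPKM in the labelled IL6ra T-KO library against 299.7 FPKM in WT, most of it Maf. The part of gamma delta T cells in the Th17 values was not tested.

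**Figure D3:**
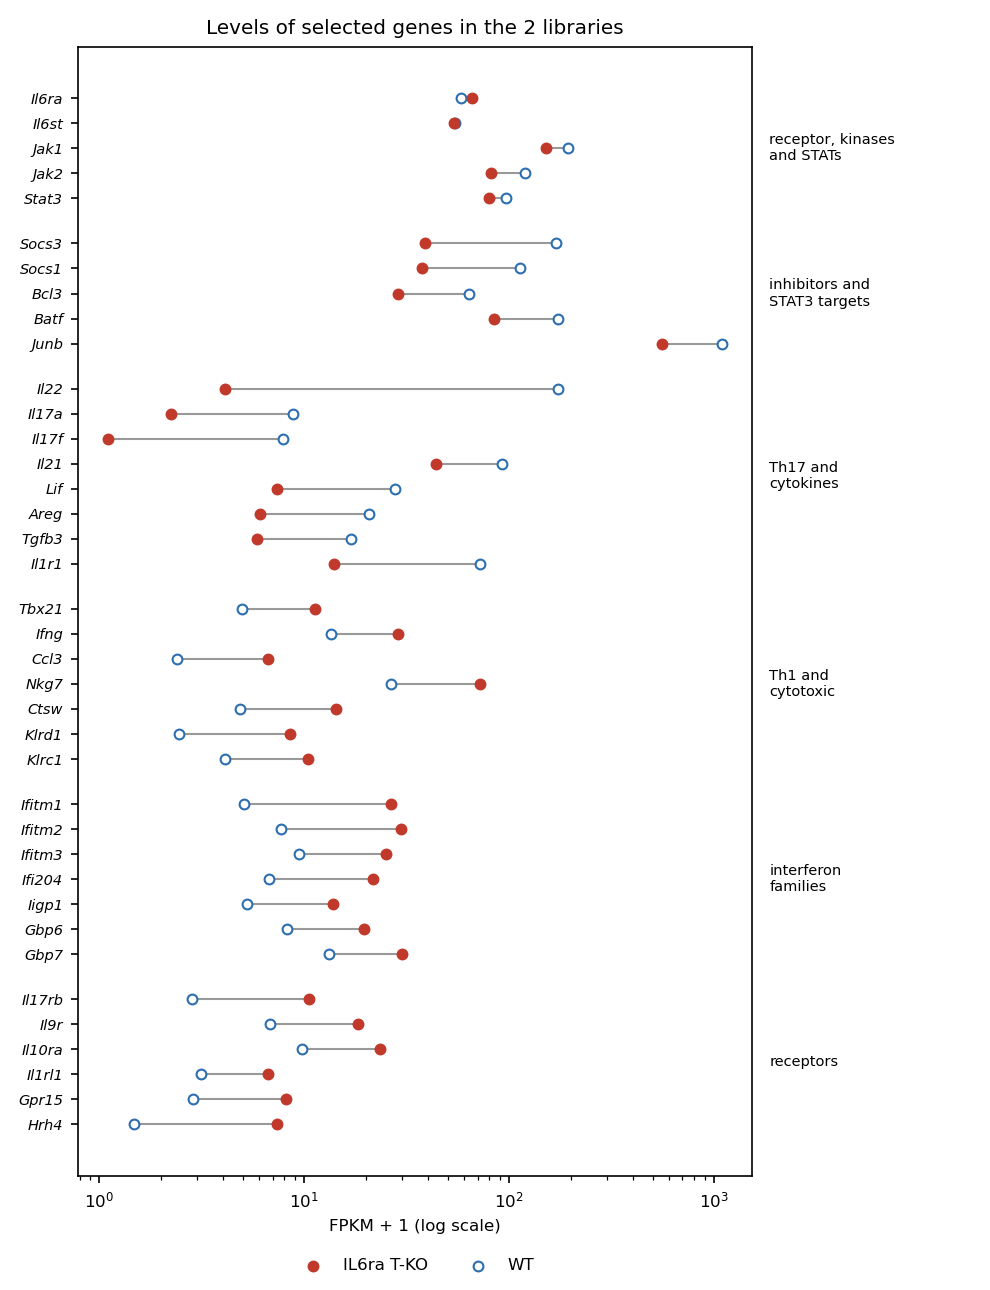
FPKM + 1 on a log scale (x axis) for selected genes (rows), with filled red points for the labelled IL6ra T-KO library and open blue points for WT. Receptor and kinase genes have points close together, WT is to the right for inhibitors and Th17 genes, and the labelled IL6ra T-KO library is to the right for the Th1, interferon and receptor groups.

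Cytokine genes were called in both directions. Of 21 measured, 7 were lower (Il22, Il17f, Il17a, Lif, Areg, Tgfb3 and Il21) and 2 higher (Ebi3 and Ifng), with a median of -0.13. Lif, an IL-6 family cytokine that itself signals through gp130, had 6.35 FPKM in the labelled IL6ra T-KO library against 26.6 FPKM in WT. Areg, a ligand of the EGF receptor, had 5.05 FPKM in the labelled IL6ra T-KO library against 19.6 FPKM in WT. Tgfb3, a TGF-beta made by Th17 cells, had 4.88 FPKM in the labelled IL6ra T-KO library against 15.8 FPKM in WT. In MyD88 T-KO, Areg had 8.15 FPKM and Tgfb3 15.4 FPKM. Il21, which drives germinal centre help, had 43.1 FPKM in the labelled IL6ra T-KO library against 91.5 FPKM in WT, and Il4 was at 44.9 FPKM in the labelled IL6ra T-KO library against 46.1 FPKM in WT. Il21 and Il4 are both made by follicular helper cells, and 1 was called while the other had a ratio of -0.04.

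Among 30 measured follicular helper genes 2 were lower, Folr4 and Il21, 0 were higher, and the median was -0.15 beside a level value of -0.12. Folr4, a surface folate receptor relative, had 157 FPKM in the labelled IL6ra T-KO library against 349.5 FPKM in WT. P2rx7, an ATP-gated channel, had a ratio of -0.98, Angptl2, a secreted protein, -0.97 and Tigit, an inhibitory receptor, -0.92, all outside the rule. Cxcr5, the homing receptor for B cell follicles, had a ratio of -0.80, and Tcf7, which acts upstream of Bcl6, one of -0.73. Bcl6 itself had 67.0 FPKM in the labelled IL6ra T-KO library against 63.9 FPKM in WT, and Icos and Pdcd1 had ratios of 0.00 and 0.03. Rgs16, a regulator of G protein signalling, was highest at 0.84. Of the 30 genes, 6 were among the lowest 2.5% of all genes of their level and 1 among the highest 2.5%, and 9 had a ratio of -0.5 or below.

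Several strongly lower genes stood outside the Th17 and STAT3 lists. Stom, a membrane scaffold protein, had 6.58 FPKM in the labelled IL6ra T-KO library against 38.9 FPKM in WT, a ratio of -2.39. Tspan5, a tetraspanin that directs the protease ADAM10, had 23.9 FPKM in the labelled IL6ra T-KO library against 79.2 FPKM in WT, a ratio of -1.69. Padi4, which converts arginine to citrulline in histones, had 45.1 FPKM in the labelled IL6ra T-KO library, 111 FPKM in MyD88 T-KO and 109.6 FPKM in WT. All 3 ratios lay in the lowest 2.5% of genes of like level, whose limit was -0.67 at 50 to 100 FPKM. Ndrg3 had 27.8 FPKM in the labelled IL6ra T-KO library against 71.8 FPKM in WT, Tesc, a calcium-binding protein, had 18.5 FPKM in the labelled IL6ra T-KO library against 48.5 FPKM in WT, and App, the amyloid precursor, had 1.88 FPKM in the labelled IL6ra T-KO library against 9.50 FPKM in WT. Gdpd3, a phosphodiesterase of lipids, had 0.440 FPKM in the labelled IL6ra T-KO library, 59.9 FPKM in MyD88 T-KO and 11.9 FPKM in WT. For Gdpd3 the MyD88 T-KO value lay above WT, a ratio of 2.27, and the value labelled IL6ra T-KO below it, a ratio of -3.16.

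Receptors for peptides and proteases were among the lower genes too. F2rl1, a receptor activated by proteases, had 6.81 FPKM in the labelled IL6ra T-KO library against 24.4 FPKM in WT. Ramp1, a subunit of the receptor for the neuropeptide CGRP, had 4.34 FPKM in the labelled IL6ra T-KO library against 15.9 FPKM in WT. Galr3, a galanin receptor, and the orphan receptor Gpr146 had ratios of -1.30 and -1.35, and both entries overlap another gene. In the same direction were Satb1, a chromatin organizer, with 17.4 FPKM in the labelled IL6ra T-KO library against 47.7 FPKM in WT, and the death receptor Fas, with 13.9 FPKM in the labelled IL6ra T-KO library against 30.3 FPKM in WT. Of 23 measured naive and central memory genes 2 were lower, Ramp1 and Satb1, with a median of -0.28. Ccr7, which guides naive cells into lymph nodes, stood near 0 at -0.01, and Il7r at 0.93 was on the other side.

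Genes of the Th1 program stood on the higher side. Tbx21, its lineage factor, had 10.3 FPKM in the labelled IL6ra T-KO library, 2.95 FPKM in MyD88 T-KO and 3.96 FPKM in WT. Ifng, its cytokine, had 27.7 FPKM in the labelled IL6ra T-KO library, 6.07 FPKM in MyD88 T-KO and 12.5 FPKM in WT. Of the 19 measured Th1 genes 6 were higher and 0 lower, with a median of 0.44 and a level value of -0.04. The others called were Ccl3, Ccl4, Nkg7 and Ly6c2. The receptors for the Th1-inducing cytokines had smaller ratios, with Il12rb1 at 0.15, Il18r1 at 0.14 and Il18rap at 0.83, and Cxcr3, the Th1 homing receptor, was at 0.19. Tnf had a ratio of -0.33.

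Genes for cytotoxic granules and NK cell receptors were higher in 5 of 17 cases, against 0.951% of all entries. Their median was 0.77 with a level value of -0.02, and 12 lay above 0 and 5 below. Nkg7, a granule membrane protein, had 71.0 FPKM in the labelled IL6ra T-KO library against 25.3 FPKM in WT. Ctsw, a granule protease, had 13.3 FPKM in the labelled IL6ra T-KO library against 3.86 FPKM in WT. Klrd1 and Klrc1, which pair as CD94 and NKG2A, had 7.54 and 9.47 FPKM in the labelled IL6ra T-KO library against 1.44 and 3.10 FPKM in WT. Klrg1, a receptor of terminal effectors, was the fifth, at 13.2 FPKM in the labelled IL6ra T-KO library against 5.30 FPKM in WT. Gzmb had a ratio of 0.41 and Eomes of 0.77, while Gzma had 1.92 FPKM in the labelled IL6ra T-KO library against 1.90 FPKM in WT, and Prf1 3.47 FPKM in the labelled IL6ra T-KO library against 2.09 FPKM in WT. Of these 4 genes only Gzmb exceeded 10 FPKM, and its ratio was within 0.5 of 0. Of the defining markers of NK cells, Klra8 and Klra4 were listed at 0 in both libraries. Ncr1 had 0.091 FPKM in the labelled IL6ra T-KO library against 0.161 FPKM in WT, and Klrb1c had 3.98 FPKM in the labelled IL6ra T-KO library against 5.77 FPKM in WT. Klrb1f had 1.37 FPKM in the labelled IL6ra T-KO library against 2.46 FPKM in WT. On the other side, Klre1 and Klrb1b had 0.450 and 0.476 FPKM in the labelled IL6ra T-KO library against 0.0598 and 0.188 FPKM in WT. Cd8b1 had 11.2 FPKM in the labelled IL6ra T-KO library against 9.38 FPKM in WT.

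Chemokine genes were few, and 3 of 5 measured were higher, against 0.951% of all entries. Of these 3, Ccl3 and Ccl4 had a mean level under 5 FPKM, a class in which 10.6% of genes were higher. The FPKM minimum itself favours wide ratios in that class. The ratios of Ccl3 (1.47) and Ccl4 (1.15) lay below its upper limit of 2.59, so their calls do not set them apart from genes of like level. Ccl3 had 5.65 FPKM in the labelled IL6ra T-KO library against 1.40 FPKM in WT, and its neighbour Ccl4, a chemokine of the same family, had 6.22 FPKM in the labelled IL6ra T-KO library against 2.25 FPKM in WT. Cxcl10, a ligand of Cxcr3, had 13.2 FPKM in the labelled IL6ra T-KO library against 5.99 FPKM in WT, and its entry overlaps Cxcl11 and Art3. Ccl5 had 78.6 FPKM in the labelled IL6ra T-KO library against 48.9 FPKM in WT, a ratio of 0.67. All 5 lay above 0.

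The Ifitm genes, which encode membrane proteins that block viral entry, were higher as a cluster on chromosome 7. Ifitm1 had 25.6 FPKM in the labelled IL6ra T-KO library, 5.22 FPKM in MyD88 T-KO and 4.09 FPKM in WT. Ifitm2 had 28.5 FPKM in the labelled IL6ra T-KO library against 6.68 FPKM in WT, and Ifitm3 23.99 FPKM in the labelled IL6ra T-KO library against 8.46 FPKM in WT. Their folds over WT were 6.25 (counting interval 4.82 to 8.25), 4.27 (3.41 to 5.38) and 2.83 (2.32 to 3.51). At most 3.30% of the 50-base stretches of one transcript occurred in another in the comparisons made, so the 3 values rest on largely distinct sequence. The Ly6 genes were divided. Ly6c2, a marker of effector cells, was higher at 1.19, whereas Ly6a, itself induced by interferon, had 336 FPKM in the labelled IL6ra T-KO library against 582 FPKM in WT.

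Interferon-inducible GTPases, which attack vacuoles of intracellular microbes, were higher in 5 of 17 cases, against 0.951% of all entries. Gbp6 had 18.6 FPKM in the labelled IL6ra T-KO library against 7.20 FPKM in WT, Gbp7 29.1 FPKM in the labelled IL6ra T-KO library against 12.2 FPKM in WT, and Iigp1 12.8 FPKM in the labelled IL6ra T-KO library against 4.27 FPKM in WT. Gbp10 and Gbp3 were the other two, at 1.22 and 1.13, and Gbp9 stood at 0.16. The list's median was 0.61, with 10 of 17 among the highest 2.5% of all genes of their level. In MyD88 T-KO, Gbp6 and Gbp7 had ratios of -0.13 and -0.06. The copies are related in sequence, and fragments may be divided among them.

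A broader list of 52 interferon-stimulated genes had 48 members above 0 but 1 called, Ifi204, a DNA sensor, at 20.6 FPKM in the labelled IL6ra T-KO library against 5.74 FPKM in WT. Its median was 0.30, with a level value of -0.06. Ifit3 at 0.86, Ifit1 at 0.70 and Rsad2 at 0.67 were among the larger ones, and Ifit2 at 0.05 and Slfn2 at 0.02 were near 0. The 23 measured genes of MHC class I and antigen processing had 20 members above 0, a median of 0.22 and 0 calls. None of the 10 interferon regulatory factors was called, with Irf5 at 0.59, Irf7 at 0.34 and Irf1 at 0.01. Many small ratios on one side thus stood beside a few called genes.

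**Figure D4:**
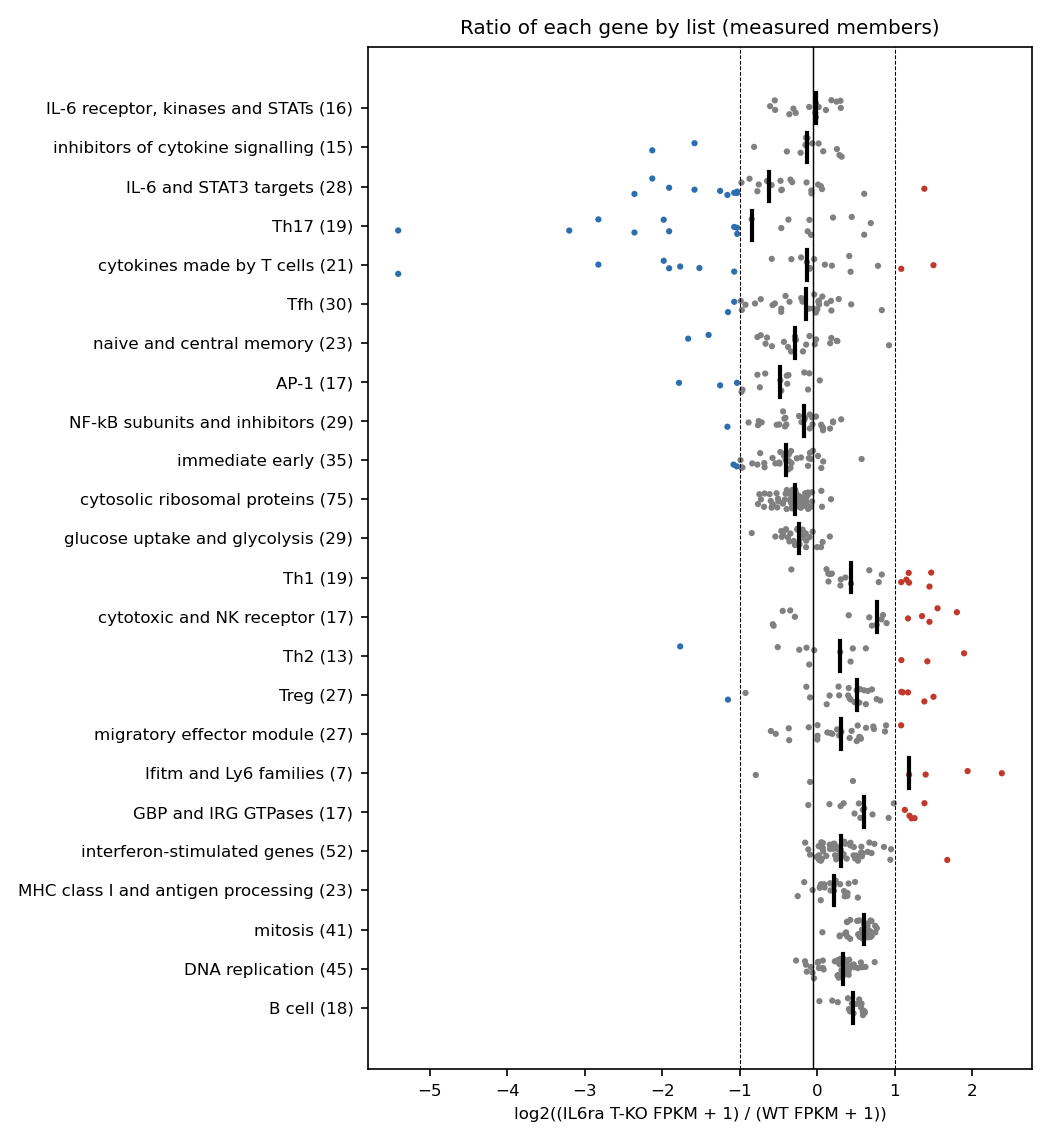
Log2 ratio of the labelled IL6ra T-KO library over WT (x axis) for each measured member of selected gene lists (rows, number of members in brackets), with black bars at list medians, a solid line at the median of all genes and dashed lines at 1 and -1. Red points are higher and blue points lower by the size rule. Th17 genes reach -5.41, and all 41 mitosis genes lie to the right of 0.

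Regulatory T cell genes had 5 of 27 members higher and 1 lower, against 0.951% and 0.741% of all entries, with a median of 0.51. Of the 27, 23 lay above 0 and 4 below. The lower one was Folr4, at 157 FPKM in the labelled IL6ra T-KO library against 349.5 FPKM in WT, and Tigit had a ratio of -0.92. The higher ones were Ebi3, a subunit of IL-35 and IL-27, with 15.9 FPKM in the labelled IL6ra T-KO library against 4.97 FPKM in WT, Fgl2, Klrg1, Entpd1 and Il1rl1. Entpd1, the ectoenzyme CD39, had 7.81 FPKM in the labelled IL6ra T-KO library against 3.09 FPKM in WT. Its partner Nt5e, which completes the conversion of extracellular ATP to adenosine, had a ratio of 0.66. Foxp3, the lineage factor, had a ratio of 0.48 and Il2ra, which binds IL-2, of 0.81, while Ctla4 stood at 0.16 and Tnfrsf4 at 0.12. Outside the lists, Nrn1, which encodes the surface protein neuritin, had 53.7 FPKM in the labelled IL6ra T-KO library, 17.0 FPKM in MyD88 T-KO and 15.3 FPKM in WT. Nrgn, a calmodulin-binding protein, had 27.0 FPKM in the labelled IL6ra T-KO library against 8.81 FPKM in WT.

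Some receptors for type 2 cytokines were among the higher genes. Il17rb, the IL-25 receptor, had 9.51 FPKM in the labelled IL6ra T-KO library against 1.82 FPKM in WT, a fold of 5.22 (counting interval 4.12 to 6.68). Il9r had 17.3 FPKM in the labelled IL6ra T-KO library against 5.83 FPKM in WT. Il1rl1, the IL-33 receptor, had 5.68 FPKM in the labelled IL6ra T-KO library against 2.14 FPKM in WT. Il4ra, the chain shared by the receptors for IL-4 and IL-13, had a ratio of -0.14. With Areg lower, 3 of 13 measured Th2 genes were thus higher and 1 lower, and the lineage factor Gata3 had a ratio of 0.46. Il10ra, a chain of the IL-10 receptor, had 22.5 FPKM in the labelled IL6ra T-KO library against 8.73 FPKM in WT. Hrh4, a histamine receptor, had 6.38 FPKM in the labelled IL6ra T-KO library against 0.478 FPKM in WT. Gpr15 and Gpr25, chemoattractant receptor relatives, had 7.13 and 7.01 FPKM in the labelled IL6ra T-KO library against 1.85 and 2.27 FPKM in WT. Gpr15 guides T cells to the colon.

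Of 22 measured integrins and selectin ligands, Itgb3 was higher, at 9.27 FPKM in the labelled IL6ra T-KO library against 3.78 FPKM in WT, and Itga7 was lower. Itgav, the alpha chain that pairs with Itgb3 and with Itgb8, had a ratio of 0.88, and Itgb8 one of 0.71. These integrins release active TGF-beta from its latent form. Fut7 at 0.95 and St3gal6 at 0.99, enzymes that build selectin ligands, were just outside the rule. In the list of genes of migratory effector cells 1 of 27 was higher, Ahnak at 1.08, against 0.951% of all entries. The list's median was 0.31 with a level value of -0.12. Lgals3 at 0.89, Emp3 at 0.88 and Crip1 at 0.73 were next, while S100a11 at -0.60 and S100a6 at -0.53 lay on the other side.

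Transcription factors that set T cell fate were lower in 3 of 50 cases, Satb1 and Batf among them, and higher in 2 (Tbx21 and Zbtb32). Over all entries 0.741% were lower and 0.951% higher. Zbtb32, a zinc finger repressor, had 18.2 FPKM in the labelled IL6ra T-KO library against 6.21 FPKM in WT. The list's median of -0.06 equalled that of all genes to 2 decimals. Runx2, from outside this list, was just inside the rule at 1.03. Maf had 208 FPKM in the labelled IL6ra T-KO library against 287 FPKM in WT, a ratio of -0.46, and Prdm1, which opposes Bcl6, had one of 0.56.

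AP-1 factors were on the lower side as a family. Of 17 measured, 3 were lower (Maff, Fosl2 and Batf), 16 lay below 0, and the median was -0.47 beside a level value of -0.09. In MyD88 T-KO the median of the same AP-1 genes was -0.32. Junb had 552 FPKM in the labelled IL6ra T-KO library against 1087 FPKM in WT, and Jun 101 FPKM in the labelled IL6ra T-KO library against 199 FPKM in WT, both just outside the rule. Maff, a small Maf protein, had 8.55 FPKM in the labelled IL6ra T-KO library against 31.8 FPKM in WT. Of 35 immediate early genes, which respond rapidly to stimulation, 2 were lower (Gadd45b and Sgk1), with a median of -0.41. Their median in MyD88 T-KO was -0.42, so this shift was seen in both knockout libraries against the shared WT. Zfp36 had a ratio of -0.73, but Hspa1a at 0.08, Hspa1b at 0.01 and Zfp36l2 at 0.05 stood near 0.

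In the NF-kB list 1 of 29 was lower, Bcl3, against 0.741% of all entries, and the median was -0.17. Tnfaip3, a deubiquitinase that limits NF-kB, had a ratio of -0.88 and Nfkbia, the inhibitor IkB alpha, of -0.76. Nfkbiz, an atypical IkB needed for Th17 genes, had 54.2 FPKM in the labelled IL6ra T-KO library against 92.0 FPKM in WT. The subunits had smaller ratios, with Nfkb1 at 0.31, Rel at 0.08, Nfkb2 at -0.01, Rela at -0.23 and Relb at -0.40. Other inhibitors ranged more widely, with Nfkbid at -0.42, Nfkbib at -0.06 and Nfkbie at 0.06. Among 34 genes of the T cell receptor complex and its signalling 0 were called, with a median of -0.19. Arid5a, which stabilizes mRNAs of IL-6 and STAT3, had 12.98 FPKM in the labelled IL6ra T-KO library against 27.4 FPKM in WT.

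Cell division genes lay above 0 without being called. All 41 measured mitosis genes had ratios above 0, with a median of 0.60, a level value of -0.03 and a range of 0.07 to 0.77. In MyD88 T-KO the median of the same 41 genes was 0.36. Kif2c, a spindle kinesin, was at 8.38 FPKM in the labelled IL6ra T-KO library against 4.50 FPKM in WT, and 16 of the 41 were among the highest 2.5% of all genes of their level. The 45 genes of DNA replication had a median of 0.34, led by Tk1 at 0.74, with Mcm6 at -0.13 and Pcna at 0.07. Their median in MyD88 T-KO was 0.16. Myc, which drives growth, had 13.1 FPKM in the labelled IL6ra T-KO library against 21.0 FPKM in WT, a ratio of -0.65. Cell cycle inhibitors Cdkn1a at -0.56, Cdkn2d at -0.50 and Cdkn1b at -0.40 had ratios on the same side as Myc.

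Lists of ribosomal, glycolysis, respiratory chain and amino acid transport genes had medians below 0 and 0 calls. Of 75 cytosolic ribosomal protein genes 72 lay below 0, with a median of -0.28 and a level value of -0.11, from Rpl12 at -0.76 to Rps18 at 0.18. Glucose uptake and glycolysis had a median of -0.23 over 29 genes, with the glucose transporter Slc2a1 at -0.40 and Hif1a, which induces these genes and acts in Th17 cells, at -0.45. The respiratory chain and ATP synthase had a median of -0.14 over 74 genes, close to its level value of -0.12. Amino acid transport and ATF4 targets had a median of -0.31 over 20 genes. In the sterol and lipid list Elovl6, a fatty acid elongase, was lower at 1.79 FPKM in the labelled IL6ra T-KO library against 5.21 FPKM in WT. Xdh, which makes uric acid, was higher with 25.5 FPKM in the labelled IL6ra T-KO library against 9.64 FPKM in WT.

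Called genes included neighbours on the chromosome. Within 200 kb of each other lay 12 runs that held 26 called entries. They included Il17a and Il17f, Ccl3 and Ccl4, Klrd1 and Klrc1, Gbp7 and Gbp3, Gbp10 and Gbp6, and the 3 Ifitm genes. In another run Batf (-1.03), Ttll5 (-1.04) and Tgfb3 (-1.52) were lower between 85686720 and 86079041 on chromosome 12. Il17rb shared a run with Chdh, whose entry of 30009000 to 30527056 on chromosome 14 also spans Cacna1d and Dcp1a. Chdh had 11.8 FPKM in the labelled IL6ra T-KO library against 2.01 FPKM in WT. The labels do not state that counting used strand, so fragments of overlapping genes cannot be told apart. This touches 27 called entries that overlap another one.

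Some overlapping entries hold values that depend on how fragments were assigned. The entry Hba-a2 had 0.000477 FPKM in the labelled IL6ra T-KO library against 6.15 FPKM in WT, while the entry Hba-a1,Hba-a2 over the same bases had 5.84 FPKM in the labelled IL6ra T-KO library against 0.000214 FPKM in WT. Oaz1-ps, a pseudogene entry that overlaps Oaz1, had 22.9 FPKM in the labelled IL6ra T-KO library against 12.6 FPKM in MyD88 T-KO and was listed at 0 in both WT columns, while Oaz1 itself had 238 FPKM in the labelled IL6ra T-KO library against 303 FPKM in WT. No difference in expression is read from these entries. Small RNA entries took 2.84% of the summed FPKM of the labelled IL6ra T-KO library against 1.24% of that of WT, and of their 21 entries 6 were higher and 5 lower.

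Markers of the sorted lineage were close. Cd3e had 653 FPKM in the labelled IL6ra T-KO library against 728 FPKM in WT, Cd4 445 FPKM in the labelled IL6ra T-KO library against 425 FPKM in WT, and the T lineage median was -0.14. Markers of other cells were nevertheless present and differed. Each of the 18 measured B cell genes had a ratio above 0, the median being 0.47, with 0 calls. The median of these 18 genes in MyD88 T-KO was larger, at 0.83. The summed level of the 22 matched genes was 822 FPKM in the labelled IL6ra T-KO library against 574 FPKM in WT. Cd79a, part of the B cell receptor, had 44.9 FPKM in the labelled IL6ra T-KO library against 31.2 FPKM in WT. Igj, the joining chain made by plasma cells, had 42.2 FPKM in the labelled IL6ra T-KO library, 15.7 FPKM in MyD88 T-KO and 8.16 FPKM in WT. With 2010001M09Rik it was 1 of 2 higher genes among 5 plasma cell genes, and Sdc1 had 1.66 FPKM in the labelled IL6ra T-KO library against 0.711 FPKM in WT. Xbp1 and Irf4, factors of plasma cells that other cells also express, had ratios of -0.17 and -0.08. These levels stand beside the higher interferon, Treg and MHC values above, and their part in them was not tested.

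Macrophage and neutrophil markers were low. Csf1r had 0.945 FPKM in the labelled IL6ra T-KO library against 0.329 FPKM in WT, and Lyz2 12.9 FPKM in the labelled IL6ra T-KO library against 7.43 FPKM in WT. S100a8 had 11.1 FPKM in the labelled IL6ra T-KO library against 19.4 FPKM in WT, and Ngp 0.470 FPKM in the labelled IL6ra T-KO library against 2.54 FPKM in WT. The neutrophil genes Mpo and Elane lay on the other side. They had 0.798 and 0.869 FPKM in the labelled IL6ra T-KO library against 0.0329 and 0.360 FPKM in WT. Cd68, another macrophage gene, had 5.93 FPKM in the labelled IL6ra T-KO library against 8.51 FPKM in WT. The 16 matched macrophage and dendritic genes all had ratios above 0 except Cd68, and 3 of the 16 reached the FPKM minimum. Both lists were far below Cd3e and Cd4 in level. Summed levels were 108 FPKM in the labelled IL6ra T-KO library against 82.9 FPKM in WT for the macrophage and dendritic list, and 23.2 FPKM in the labelled IL6ra T-KO library against 38.5 FPKM in WT for the neutrophil list. Of 3 measured entries on chromosome Y, 2 were higher and 1 lower. Eif2s3y had 15.7 FPKM in the labelled IL6ra T-KO library against 3.96 FPKM in WT, Ddx3y 10.5 FPKM in the labelled IL6ra T-KO library against 4.56 FPKM in WT, and Erdr1 4.73 FPKM in the labelled IL6ra T-KO library against 12.7 FPKM in WT. Xist, expressed in female cells, had 49.9 FPKM in the labelled IL6ra T-KO library against 43.6 FPKM in WT. The share of male mice in each pool is not given here, and its effect and that of the genotype cannot be told apart.

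**Figure D5:**
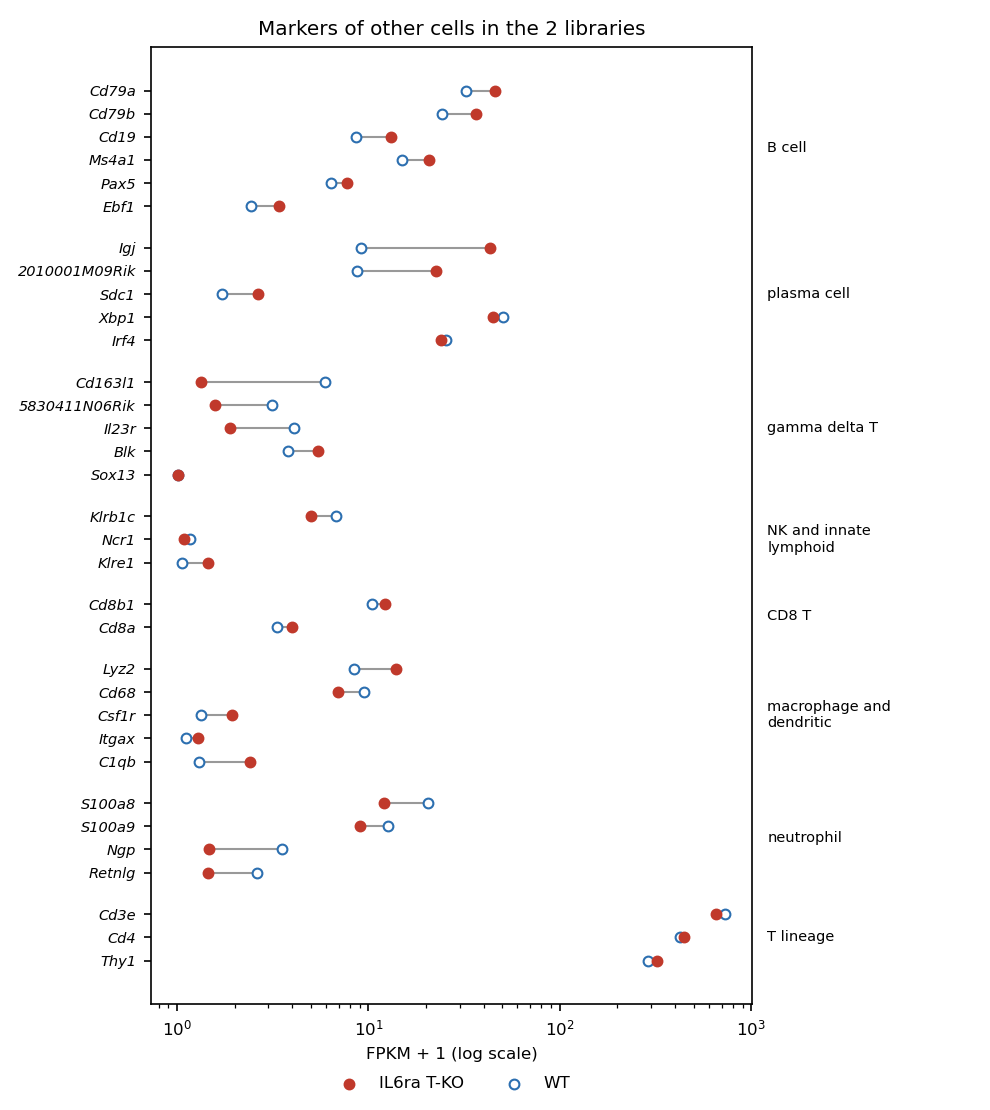
FPKM + 1 on a log scale (x axis) for markers of other cells and of T cells (rows), with filled red points for the labelled IL6ra T-KO library and open blue points for WT. B cell points are farther right in the labelled IL6ra T-KO library, and plasma cell points lie on both sides. Macrophage points are farther right in the labelled IL6ra T-KO library except for Cd68. Gamma delta points are farther right in WT except for Blk, with Sox13 points nearly coinciding. The neutrophil genes drawn are farther right in WT, and T lineage points nearly coincide.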

How the data were processed

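PolyA-selected RNA of 2W:I-A(b)+ CD4+ T cells was sequenced as 1 pooled library per genotype, and samples were grouped by title. The authors deposited FPKM values, per the file headers, in 2 tables of 4 sheets each, 1 for each knockout library beside WT. The submitters' processing notes name TopHat, Cufflinks and mm10, without versions. The deposited fold, p and q columns were not used, and 1 emptied line of the table was left out.

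From the FPKM values, log2 ratios with a pseudocount of 1 FPKM were computed for entries with FPKM of at least 5 in either library (Python 3.11.15, pandas 2.3.3, numpy 2.4.6, scipy 1.17.1), and a ratio of 1 or more in size was called. Depth was estimated from the fragment steps of low genes with 1 transcript (107 for the labelled IL6ra T-KO library, 127 for WT). Clopper-Pearson intervals at 95% used those depths and the median GENCODE M21 transcript length of each gene, so they hold counting error only. The level of a gene is the geometric mean of both FPKM values, each with 1 added.

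The 68 gene lists and their members were chosen with earlier results of these data known. Of 1975 list members, 1939 were matched by symbol, 12 by synonym and 24 not at all. Named were Il6ra, its neighbours, the 40 annotated single-symbol genes with the largest ratio in each direction, genes at the size rule's edge and list members. Ttll5, Ddx3y, Xist, Oaz1 and the entry Hba-a1,Hba-a2 were chosen after their values were seen, as were the genes whose promoters are shown. Promoters came from RefSeq tables on GRCm38.p6. The ratio and interval code was tested on simulated data. Alternatives changed the pseudocount, the FPKM minimum, centring, the source of the WT values and which entries were kept.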

Additional observations from a re-analysis of the deposited data

How the results depend on the processing

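With 1 pooled library per group, no result has a replicate check, and low FPKM limits precision. Below a mean level of 5 FPKM the central 95% of ratios spanned -2.76 to 2.59. The FPKM minimum in either library itself widens that span, so it is not a measure of precision. No paired analysis was possible because each group had 1 library and the columns carry no replicate number. The 77 higher and 60 lower entries became 32 and 35 with a pseudocount of 5 FPKM, and 25 and 32 with an FPKM minimum of 20, all of which were among the original calls. The higher entries became 116 with an FPKM minimum of 1 and also 116 with no filter on FPKM, while the lower ones became 79 in both, within 1.5 times. With a pseudocount of 0.1 FPKM there were 102 higher and 74 lower, with ratios centred on their median 87 and 49, without small RNA, predicted and several-symbol entries 64 and 54, without markers of other cells 74 and 59, and with the WT values of the MyD88 table the counts were 77 and 60. Higher entries outnumbered lower ones in all of these except with the pseudocount of 5 FPKM and the FPKM minimum of 20, where lower ones were more; the cause was not tested. Of the 98 called genes named by the lists or the ranking, 98 stayed called with the pseudocount of 0.1 FPKM, 51 with 5 FPKM and 94 after centring, and 0 changed sign under these settings. Medians of lists near 0 changed sign under centring in 10 of 68 lists, among them the IL-6 receptor, kinases and STATs, from -0.02 to 0.04, and list medians of 0.1 or more in size kept their sign in each setting where the list had members (65 of the 68 lists with an FPKM minimum of 20) except TNF superfamily ligands, at -0.13, or 0.03 with an FPKM minimum of 1.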

Other observations

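Some called genes belong to no group described above. Among the higher ones, Ppic, a cyclophilin, had 35.4 FPKM in the labelled IL6ra T-KO library against 13.5 FPKM in WT, and Lrig1, a transmembrane inhibitor of growth factor receptors, had 19.7 FPKM in the labelled IL6ra T-KO library against 7.73 FPKM in WT. Apoe, a lipid carrier, had 16.6 FPKM in the labelled IL6ra T-KO library against 6.18 FPKM in WT. Among the lower ones, B4galnt4, a glycosyltransferase, had 6.75 FPKM in the labelled IL6ra T-KO library against 25.2 FPKM in WT, a ratio of -1.76, and Mef2b, a transcription factor known from germinal centre B cells, had 2.94 FPKM in the labelled IL6ra T-KO library against 10.4 FPKM in WT. In MyD88 T-KO, Ppic had a ratio of 0.18 and B4galnt4 one of -0.04.

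Beside 0.951% higher and 0.741% lower among all entries, the share called differed between chromosomes, with all 3 entries called on chromosome Y (2 higher, 1 lower), 14 higher and 4 lower of 577 entries on chromosome 7 (3.12%), and 2 higher and 1 lower of 448 on chromosome 9 (0.67%). Of the 137 called entries, 65 were on a gene list, 36 higher and 29 lower.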
